A study of Mus musculus with 20 samples.

Results

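Glucose enters a cell through transporters of the Slc2a family and is broken down to pyruvate by the enzymes of glycolysis. Pyruvate is then reduced to lactate and exported, or taken into mitochondria for oxidation, and a side branch, the pentose phosphate pathway, makes NADPH and ribose. Macrophages, including microglia, the resident macrophages of the brain, are known to raise glycolysis when activated. The hypoxia-inducible factor Hif1a and the mTOR kinase are known regulators of these genes. Here 37 genes of glucose transport, glycolysis, lactate handling, pyruvate entry into mitochondria and the pentose phosphate pathway were described in sorted microglia. They were chosen by name with earlier results of these data known, so the shares called below are descriptions, not tests of the set. Each was represented by its highest-mean probe set among those annotated to exactly 1 gene symbol. Such a probe set existed for 32 of the 37 genes, out of 19751 genes on the array, and 30 of the 37 passed the filter on low values, out of 12728 genes tested.

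Microglia came from 8.5-month-old littermates of 4 genotypes, with 4 arrays of WT mice, 4 of Trem2-/- mice, 5 of 5XFAD mice and 6 of Trem2-/-5XFAD mice. Trem2 is a lipid-sensing receptor of microglia. The 5XFAD line is a transgenic mouse model of Alzheimer's disease, with transgenes expressed in neurons, that forms amyloid plaques. The sources used here do not state which allele Trem2-/- denotes, how the cells were gated or the sex of the mice. One further array, with conflicting labels, entered no group. Nothing in the labels beyond the word littermates says how separate the samples were, so p-values measure the spread between these arrays.

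Levels are given as log2(intensity + 1), and a difference of 1 on this scale is a doubling of intensity plus 1. Each difference comes from a limma model over the 19 assigned arrays. It is given with its standard error, and a gene is called higher or lower where its Benjamini-Hochberg adjusted p, over all 12728 genes, lies under 0.05. Probe sets differ in brightness for reasons other than abundance, so levels of different genes are not compared.

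The arrays were checked before the members were read. Trem2 lay between 11.14 and 11.80 in the mice with the gene and between 6.75 and 7.60 in those without it. The 11 measured microglial markers averaged 10.88 to 11.56 on the assigned arrays, and none was below the 40th percentile on every array. Trem2 is among these markers, so its loss lowers their mean in the mice without it. They moved between the groups: 7 of 11 were called lower in 5XFAD than in WT and none higher, and in Trem2-/-5XFAD against 5XFAD 5 were called higher and 1, Trem2 itself, lower. Tmem119 differed by -0.96 ± 0.09 and 0.58 ± 0.08 in these comparisons and P2ry12 by -0.80 ± 0.11 and 0.46 ± 0.10, opposite in sign to most called members described further on. Below the 40th percentile on every array were 5 of 11 neuronal, 2 of 8 oligodendrocyte, 3 of 10 astrocyte and 4 of 9 vascular markers, and none of 10 border macrophage markers. Xist signal, seen in females, was present on 3 of the 4 arrays of WT, on 3 of the 4 of Trem2-/- and on 1 of the 5 of 5XFAD, and Y-linked signal in the remaining arrays, including all 6 of Trem2-/-5XFAD. The mean of the salivary gland markers set 4 arrays apart (WT 1, WT 2, 5XFAD 1 and 5XFAD 2), at 5.49 to 6.13. These are called the arrays with salivary gland transcripts below. The mean was 4.74 in Trem2-/- 3, 3.99 in WT 4 and 3.99 in Trem2-/- 2, which that name leaves out, and lower in the remaining arrays. Neutrophil markers were highest in Trem2-/- 1 (5.56) and Trem2-/-5XFAD 1 (5.83). The part of sex signal and of foreign RNA in the results below was not tested beyond the alternatives named.

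Microglia of 5XFAD mice had higher levels of much of this pathway than WT microglia. Of the 30 tested members 12 were higher and 1 was lower, against 8.23% of all tested genes higher and 6.77% lower. The 12 were the glucose transporters Slc2a1 and Slc2a6, the glycolytic enzymes Pfkl, Aldoa, Tpi1, Pgk1, Pgam1 and Pkm, the lactate genes Ldha and Slc16a3, the regulatory enzyme Pfkfb3 and the pentose phosphate enzyme Tkt. The member that was lower was Ldhb. The median difference over the 30 members was 0.33, beside -0.02 over all tested genes. In bulk RNA of sorted cells, fewer cells of a state and less RNA per cell cannot be told apart.

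In 5XFAD mice without Trem2 a large share of these genes was lower than in 5XFAD mice with it. Comparing Trem2-/-5XFAD with 5XFAD, 11 of 30 members were lower and 0 higher (limma, 16 members at an unadjusted p under 0.05). Of all tested genes 4.46% were lower and 3.21% higher. For an unadjusted p, here and below, no share over all tested genes was counted. Those 11 were Slc2a1, Slc2a6, Pfkl, Aldoa, Aldoc, Tpi1, Pgk1, Pgam1, Pkm, Slc16a3 and Tkt, with a median over all 30 members of -0.33, beside 0.04 over all tested genes. This comparison and that of 5XFAD with WT share the 5XFAD arrays, so their values are given side by side and are not independent.

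**Figure D1:**
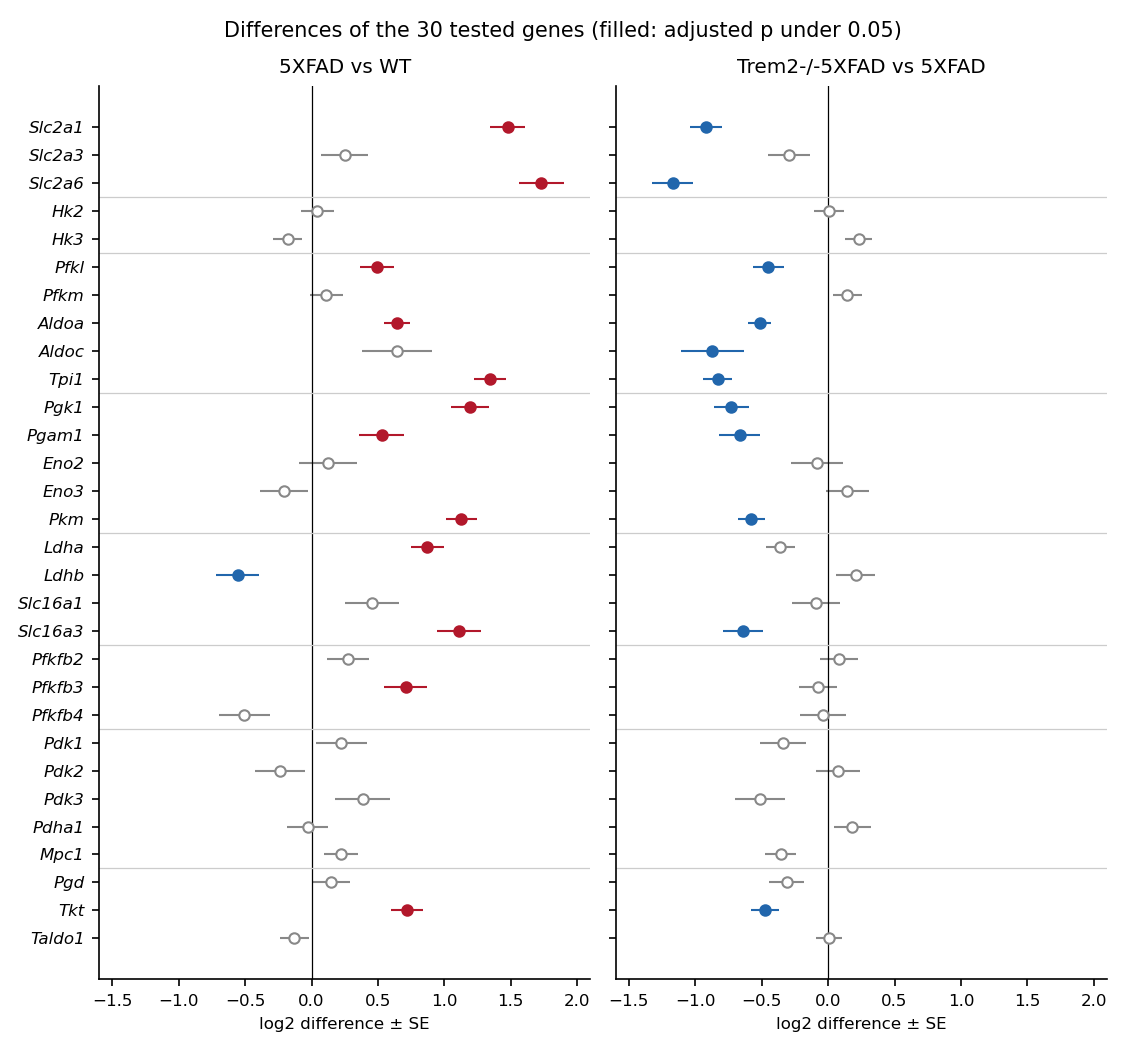
Log2 difference with its standard error of each of the 30 tested genes, in 5XFAD against WT (left) and in Trem2-/-5XFAD against 5XFAD (right). Genes are ordered by role from transporters at the top to the pentose phosphate pathway at the bottom, filled points have a limma adjusted p under 0.05, and both panels share the 5XFAD arrays. On the left 12 genes are filled above 0 and Ldhb below it, and on the right 11 genes are filled, all below 0.

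Promoters of the members were read for the letters to which hypoxia-inducible factors are known to bind, since Hif1a and its targets are described further on. The letters searched were ACGTG and GCGTG on either strand, in the 250 bases before a transcript start, as given by RefSeq for GRCm38.p6. The first overlaps the E-box CACGTG, the motif of Bhlhe40, Myc and the carbohydrate-response factors. Promoters were listed for 36 of the 37 members, 53 promoters in all, and 43 of these (81.1%) held at least 1 match. Among 12840 promoters of tested genes the share was 53.4%, and among the 32851 promoters of all genes 38.6%. Both counts leave out the promoters of 1 chromosome, on which no member lies. For CACGTG the shares were 11.3%, 8.2% and 6.0%. A match to so few letters is a description, not a binding site, and its absence says nothing of the factor.

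The promoters of 5 members are shown as examples, 5′ to 3′ on the strand of the gene, with every match in capitals. Not shown were Slc2a6, with 4 matches, Ldha, with 5 and 1, Pkm, with 0 and 1, and Aldoa, with 0, 1 and 1 by promoter. Each CACGTG counts as 2 overlapping matches, 1 per strand, and the Ldha promoter with 5 matches held 2 of them. At least 1 match was held by 33 of the 36 members, among them Hk2 and Hk3, which were called in no comparison. Matches thus do not mark out the members that moved. Slc2a1 (chr4:119108495-119108744, plus strand), Pgk1 (chrX:106186850-106187099, plus strand) and Slc16a3 (chr11:120948817-120949066, plus strand) held 2 matches each. Ldhb (chr6:142507958-142508207, minus strand), the member that moved the other way, held 1. Tpi1 (chr6:124814159-124814408, minus strand), whose change was among the clearest, held 0.
Slc2a1: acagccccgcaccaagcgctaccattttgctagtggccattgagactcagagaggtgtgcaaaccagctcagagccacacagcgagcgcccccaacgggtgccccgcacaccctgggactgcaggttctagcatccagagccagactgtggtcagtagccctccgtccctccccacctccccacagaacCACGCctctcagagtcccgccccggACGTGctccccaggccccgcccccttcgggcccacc
Pgk1: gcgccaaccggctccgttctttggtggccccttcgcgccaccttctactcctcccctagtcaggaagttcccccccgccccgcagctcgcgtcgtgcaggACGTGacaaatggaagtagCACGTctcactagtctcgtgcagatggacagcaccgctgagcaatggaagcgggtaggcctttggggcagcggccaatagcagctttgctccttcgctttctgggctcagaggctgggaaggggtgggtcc
Slc16a3: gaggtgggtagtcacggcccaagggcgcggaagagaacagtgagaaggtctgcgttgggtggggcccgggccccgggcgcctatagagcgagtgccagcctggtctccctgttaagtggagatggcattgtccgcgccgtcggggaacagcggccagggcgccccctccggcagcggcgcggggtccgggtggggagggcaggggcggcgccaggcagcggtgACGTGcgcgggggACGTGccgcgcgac
Tpi1: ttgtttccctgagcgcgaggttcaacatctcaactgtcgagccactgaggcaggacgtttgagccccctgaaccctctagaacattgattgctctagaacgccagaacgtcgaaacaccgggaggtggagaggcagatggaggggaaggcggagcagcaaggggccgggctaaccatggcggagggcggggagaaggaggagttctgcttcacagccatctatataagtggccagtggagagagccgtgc
Ldhb: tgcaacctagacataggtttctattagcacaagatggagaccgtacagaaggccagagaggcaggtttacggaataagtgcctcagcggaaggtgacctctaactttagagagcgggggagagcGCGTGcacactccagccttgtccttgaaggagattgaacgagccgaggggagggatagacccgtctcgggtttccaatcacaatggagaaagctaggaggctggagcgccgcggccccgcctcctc

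Glucose uptake came first in the pathway. Slc2a1 (GLUT1), the widely expressed basal glucose transporter, had values of 9.28, 9.61, 8.92 and 8.73 in WT and of 10.54, 10.68, 10.68, 10.68 and 10.49 in 5XFAD. Every 5XFAD array was above every WT array, and the difference was 1.48 ± 0.13 (2.79 times, limma adjusted p = 6.59e-08). In Trem2-/- the values were 9.27, 9.09, 9.26 and 9.29, within the range of WT. In Trem2-/-5XFAD they ran from 9.57 to 9.85 with a median of 9.69, above all Trem2-/- arrays and below all 5XFAD arrays. The difference between Trem2-/-5XFAD and 5XFAD was -0.92 ± 0.12 (limma adjusted p = 2.48e-05).

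Slc2a6 (GLUT6), a hexose transporter found on lysosomal membranes of macrophages, showed the largest difference among the members. It measured 6.05, 5.18, 5.81 and 5.55 in WT and 7.51, 7.40, 6.99, 7.58 and 7.43 in 5XFAD, a difference of 1.73 ± 0.17 (3.32 times, adjusted p = 2.95e-07). The Trem2-/- arrays were at 5.32, 5.45, 5.57 and 5.50. Those of Trem2-/-5XFAD ran from 5.85 to 6.69 with a median of 6.16, all below 5XFAD and above Trem2-/-, and the difference from 5XFAD was -1.17 ± 0.15 (adjusted p = 2.88e-05). The highest of the 6, at 6.69, was Trem2-/-5XFAD 1, the array with the highest neutrophil markers. Without it and Trem2-/- 1 the difference between Trem2-/-5XFAD and Trem2-/- was 0.61 in place of 0.75, and its adjusted p 0.127 in place of 0.0177. Slc2a3 (GLUT3), the transporter typical of neurons, was dim (4.95 ± 0.21 in WT, SD, n = 4, and 5.20 ± 0.22 in 5XFAD, SD, n = 5) and was called in no comparison.

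The hexokinases, which trap glucose in the cell by phosphorylation, were not called in any comparison. Hk2 averaged 7.95 ± 0.14 in WT (SD, n = 4) and 7.99 ± 0.11 in 5XFAD (SD, n = 5), with a 95% interval of the difference from -0.22 to 0.30. Hk3, the isoform of myeloid cells, differed by -0.18 ± 0.11 between 5XFAD and WT and by 0.23 ± 0.10 between Trem2-/-5XFAD and 5XFAD (adjusted p = 0.322 and 0.199).

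Of the upper glycolytic enzymes, which turn hexose phosphate into triose phosphate, 3 of 5 tested were higher in 5XFAD than in WT. Aldoa, the main aldolase, measured 10.59, 10.51, 10.50 and 10.50 in WT, 11.16, 11.13, 11.36, 11.07 and 11.15 in 5XFAD, and 10.33, 10.35, 10.41 and 9.998 in Trem2-/-. The 6 Trem2-/-5XFAD arrays ran from 10.50 to 10.77 with a median of 10.67. Aldoa was thus highest in all 5XFAD arrays, at 0.65 ± 0.10 above WT (adjusted p = 6.81e-05), and Trem2-/-5XFAD was 0.52 ± 0.09 below 5XFAD, a log2 difference of -0.52 (adjusted p = 0.00056). Its Trem2-/- arrays all lay under the WT arrays, by 0.25 ± 0.10 on average, a log2 difference of -0.25 that was not called (adjusted p = 0.306).

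Tpi1, triosephosphate isomerase, had the smallest p of all members in 5XFAD against WT. Its values were 8.43, 8.35, 8.18 and 8.47 in WT, 9.62, 9.64, 10.01, 9.52 and 9.72 in 5XFAD, and 8.65, 8.24, 8.23 and 8.51 in Trem2-/-. In Trem2-/-5XFAD they ran from 8.69 to 9.09 with a median of 8.87. All 5XFAD arrays were above all others, and the Trem2-/-5XFAD arrays stood between them and both groups without the transgenes, with no overlap. The difference was 1.34 ± 0.12 between 5XFAD and WT (2.54 times, limma adjusted p = 5.92e-08) and -0.83 ± 0.11 between Trem2-/-5XFAD and 5XFAD (adjusted p = 2.34e-05).

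Phosphofructokinase, the committed step of glycolysis, was measured by 3 isoforms. The liver-type isoform Pfkl rose by 0.49 ± 0.13 in 5XFAD against WT (adjusted p = 0.0111) and was -0.45 ± 0.12 in Trem2-/-5XFAD against 5XFAD (adjusted p = 0.0181), which became -0.35 with an adjusted p of 0.0585 without 5XFAD 3. The muscle-type Pfkm was called nowhere, and the platelet-type Pfkp failed the filter, with group means from 3.62 to 4.10. Aldoc, the aldolase typical of astrocytes, averaged 6.55 ± 0.54 in WT (SD, n = 4) and 7.19 ± 0.43 in 5XFAD (SD, n = 5), which was not called (0.64, adjusted p = 0.109) but was with the sex signal as a factor (0.99, adjusted p = 0.0130). It averaged 6.32 ± 0.44 in Trem2-/-5XFAD (SD, n = 6), which was called lower than 5XFAD (-0.87 ± 0.24, adjusted p = 0.0252) although Trem2-/-5XFAD 6, at 7.17, overlapped 5XFAD.

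Aldoc is also an astrocyte marker, so the astrocyte list is given beside it. The 10 measured astrocyte markers other than Aldoc averaged 5.20 to 5.50 in 5XFAD, 4.81 to 5.11 in WT, 4.76 to 4.97 in Trem2-/- and 4.99 to 5.17 in Trem2-/-5XFAD, so the 5XFAD arrays were above all others. Gfap, an intermediate filament of astrocytes, differed by 2.16 ± 0.18 between 5XFAD and WT and by -0.76 ± 0.16 between Trem2-/-5XFAD and 5XFAD. Of the 7 markers tested, Gfap and Ndrg2 (0.87 ± 0.25) were called higher in 5XFAD than in WT, Slc1a3 was called lower (-0.73 ± 0.17) and 4 were not called. Gfap alone of the 7 was called in Trem2-/-5XFAD against 5XFAD, where it was lower. Of the 10 measured markers, Aqp4, Aldh1l1 and Slc4a4 were below the 40th percentile on every array. With the mean marker level of the other brain cells (neuronal, astrocytic, oligodendroglial and vascular lists) as a covariate, the Aldoc difference fell to -0.46 (adjusted p = 0.466). Pfkl, Pgam1, Slc16a3 and Tkt lost their calls in that comparison (adjusted p from 0.0638 to 0.142). Their differences were -0.52, -0.66, -0.58 and -0.50, beside -0.45, -0.67, -0.64 and -0.48 in the main fit. Their standard errors were 0.15, 0.20, 0.20 and 0.14, beside 0.12, 0.15, 0.15 and 0.11 in the main fit. The Aldoc call was also lost without any one of 4 arrays, 5XFAD 1, 5XFAD 2, Trem2-/-5XFAD 1 or Trem2-/-5XFAD 4 (adjusted p from 0.0590 to 0.0896).

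Lower glycolysis, which yields ATP and pyruvate, held 5 tested members, and 3 were higher in 5XFAD. Pgk1, phosphoglycerate kinase, which makes the first ATP of the pathway, measured 8.33, 8.66, 8.55 and 8.30 in WT and 9.70, 9.50, 10.002, 9.54 and 9.51 in 5XFAD. It measured 8.39, 8.47, 8.36 and 7.81 in Trem2-/- and ran from 8.68 to 9.22 with a median of 8.91 in Trem2-/-5XFAD. All 5XFAD arrays were above all others, and no Trem2-/-5XFAD array reached a 5XFAD array. The differences were 1.19 ± 0.15 for 5XFAD against WT (2.29 times, adjusted p = 5.32e-06) and -0.73 ± 0.13 for Trem2-/-5XFAD against 5XFAD (adjusted p = 0.00106).

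Pkm, pyruvate kinase, the last step of glycolysis, was 8.73, 8.81, 8.89 and 8.83 in WT and 10.001, 9.97, 9.997, 9.90 and 9.85 in 5XFAD. The Trem2-/- values were 9.04, 8.997, 8.57 and 8.92, and those of Trem2-/-5XFAD ran from 9.10 to 9.60 with a median of 9.39. The 5XFAD arrays were tightly grouped and above all others, at 1.13 ± 0.12 over WT (2.18 times, adjusted p = 4.9e-07). The Trem2-/-5XFAD arrays were lower than 5XFAD by a log2 difference of -0.58 ± 0.10 (adjusted p = 0.00104).

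Pgam1, phosphoglycerate mutase, was higher in 5XFAD than in WT (0.53 ± 0.17, adjusted p = 0.0381) and lower in Trem2-/-5XFAD than in 5XFAD (-0.67 ± 0.15, adjusted p = 0.00772). The first call was lost without any one of WT 1, WT 3, WT 4, 5XFAD 1, 5XFAD 3, 5XFAD 4 or 5XFAD 5 (differences of 0.44 to 0.57, adjusted p from 0.0511 to 0.119). Its probe set stands among probe sets of chromosome 7, with 19 of its 20 neighbours there, whereas the gene lies on chromosome 19, so it may report a near-identical copy and its identity is uncertain. Eno3, the muscle enolase, and Eno2, the neuronal enolase, which passed the filter with 5 arrays, were called nowhere. Gapdh was named only on 10 probe sets that carry several gene names, and no single-symbol probe set was named for Eno1 or Gpi1, so these enzymes were not analysed here.

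**Figure D2:**
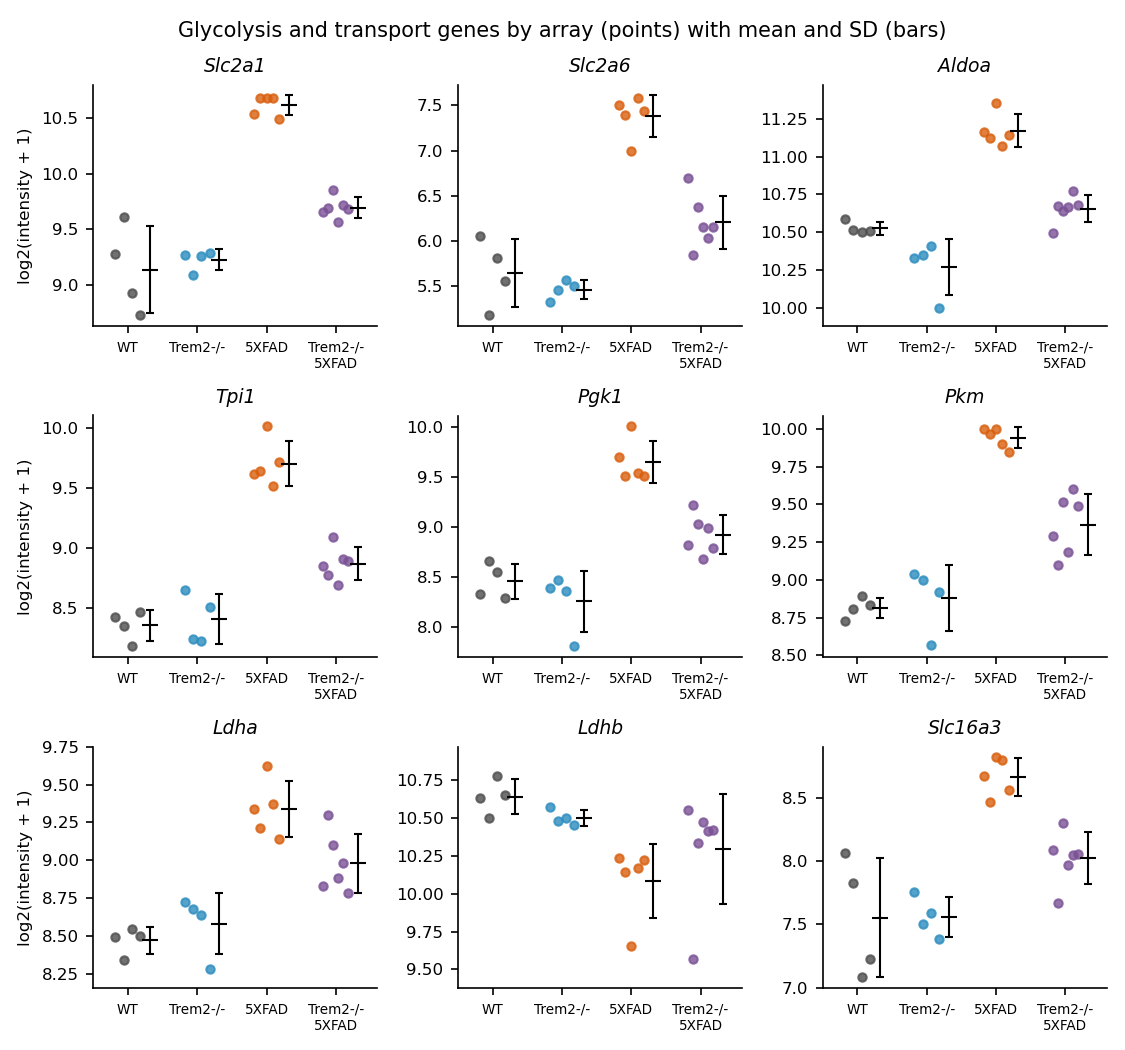
Values of 9 genes on each of the 19 assigned arrays, as log2(intensity + 1), with 1 panel per gene and its own vertical axis. Points are arrays, and the bar beside each group is its mean with SD (4 WT, 4 Trem2-/-, 5 5XFAD and 6 Trem2-/-5XFAD arrays). In 8 panels the 5XFAD points stand above all WT points, and in the Ldhb panel they stand below them.

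Lactate handling changed in both directions within 5XFAD. Ldha, the lactate dehydrogenase subunit that favours lactate formation, was 8.49, 8.34, 8.54 and 8.50 in WT and 9.34, 9.22, 9.62, 9.37 and 9.14 in 5XFAD, a difference of 0.87 ± 0.12 (1.83 times, adjusted p = 3.73e-05). Ldhb, the subunit that favours lactate use, was 10.64, 10.50, 10.78 and 10.66 in WT and 10.24, 10.14, 9.66, 10.17 and 10.23 in 5XFAD, a difference of -0.56 ± 0.16 (adjusted p = 0.0219). Every 5XFAD array was thus above WT for Ldha and below WT for Ldhb. Ldhb was no longer called without WT 3 (-0.51, adjusted p = 0.0673) or without 5XFAD 3 (-0.45, adjusted p = 0.0635).

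The lactate dehydrogenase subunits were also read without Trem2. Ldha measured 8.72, 8.67, 8.64 and 8.28 in Trem2-/- and ran from 8.78 to 9.30 with a median of 8.93 in Trem2-/-5XFAD, overlapping 5XFAD. Its difference between Trem2-/-5XFAD and 5XFAD was -0.36 ± 0.11 and missed the threshold (95% interval -0.59 to -0.12, adjusted p = 0.0559), which it passed without any one of Trem2-/- 4, 5XFAD 5 or Trem2-/-5XFAD 2 (-0.42 to -0.36, adjusted p from 0.0187 to 0.0411). Ldhb measured 10.57, 10.48, 10.50 and 10.45 in Trem2-/-, and in Trem2-/-5XFAD it ran from 9.57 to 10.56 with a median of 10.42. The lowest value, 9.57, was that of Trem2-/-5XFAD 2 alone, and the other 5 arrays lay between 10.33 and 10.56.

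Ldhb has a second single-symbol probe set, on which Trem2-/-5XFAD 2 was not low. There the group means were 10.60 ± 0.11 in WT (SD, n = 4), 10.44 ± 0.10 in Trem2-/- (SD, n = 4), 9.88 ± 0.22 in 5XFAD (SD, n = 5) and 10.45 ± 0.11 in Trem2-/-5XFAD (SD, n = 6), and no array of Trem2-/-5XFAD, at 10.37 to 10.67, overlapped those of 5XFAD, at 9.50 to 10.06. On the first probe set the difference between Trem2-/-5XFAD and 5XFAD was 0.21 ± 0.15 (adjusted p = 0.468). It was 0.35 without Trem2-/-5XFAD 2 (adjusted p = 0.0429) and 0.39 with the mean of both probe sets, all arrays kept (adjusted p = 0.0206). Whether Ldhb is called higher in Trem2-/-5XFAD than in 5XFAD thus depends on the probe set used and, on the first, on Trem2-/-5XFAD 2.

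The export of lactate is carried by monocarboxylate transporters. Slc16a3 (MCT4), the form of glycolytic cells, was 8.06, 7.83, 7.09 and 7.23 in WT and 8.67, 8.47, 8.82, 8.80 and 8.56 in 5XFAD. It was 7.75, 7.499, 7.59 and 7.39 in Trem2-/- and ran from 7.67 to 8.30 with a median of 8.05 in Trem2-/-5XFAD. The 5XFAD arrays were above all others, while Trem2-/-5XFAD overlapped Trem2-/-. The differences were 1.11 ± 0.17 for 5XFAD against WT (2.16 times, adjusted p = 6.8e-05) and -0.64 ± 0.15 for Trem2-/-5XFAD against 5XFAD (adjusted p = 0.00986). Both higher WT values came from WT 1 and WT 2, arrays with salivary gland transcripts. Slc16a1 (MCT1), the widely expressed form, was called nowhere, at 0.45 ± 0.20 in 5XFAD against WT (adjusted p = 0.144); without WT 1 that difference was 0.64 (adjusted p = 0.0346).

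The PFKFB enzymes set the level of fructose 2,6-bisphosphate, the activator of phosphofructokinase. Pfkfb3, the isoform with the strongest kinase activity, was at 9.61, 9.56, 8.85 and 9.19 in WT and at 9.78, 9.87, 10.21, 10.23 and 9.96 in 5XFAD, a difference of 0.71 ± 0.16 (1.63 times, adjusted p = 0.00405). In Trem2-/-5XFAD it ran from 9.73 to 10.10 with a median of 9.94, which overlapped 5XFAD. The difference of -0.08 ± 0.15 had a 95% interval from -0.38 to 0.23. Pfkfb2 and Pfkfb4 were called nowhere. Pfkfb4 ran from 5.75 to 6.41 in Trem2-/- and from 6.41 to 7.05 in WT, and its differences were -0.52 ± 0.20 between these groups (adjusted p = 0.285) and -0.51 ± 0.19 in 5XFAD against WT (adjusted p = 0.0834; 0.0347 without Trem2-/-5XFAD 2).

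Pyruvate entry into mitochondria showed no called change. Pyruvate dehydrogenase kinases Pdk1, Pdk2 and Pdk3, which switch off pyruvate oxidation, the dehydrogenase subunit Pdha1 and the pyruvate carrier subunit Mpc1 differed between 5XFAD and WT by -0.24 to 0.39 and between Trem2-/-5XFAD and 5XFAD by -0.51 to 0.18. Pdk4 failed the filter, with group means from 2.93 to 3.20. Mpc1 missed the threshold in Trem2-/-5XFAD against 5XFAD (-0.36 ± 0.12, adjusted p = 0.0719) and passed it without Trem2-/- 4 (adjusted p = 0.0399). The 20 nearest probe sets to that of Mpc1 all belong to chromosome 12 while the gene lies on chromosome 17, so its identity is uncertain as well. No single-symbol probe set was named for Mpc2.

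In the pentose phosphate pathway 1 of 3 tested members moved. Tkt, transketolase, which links the pathway back to glycolysis, averaged 7.69 ± 0.19 in WT (SD, n = 4), 7.77 ± 0.19 in Trem2-/- (SD, n = 4), 8.41 ± 0.19 in 5XFAD (SD, n = 5) and 7.93 ± 0.11 in Trem2-/-5XFAD (SD, n = 6). All 5XFAD arrays were above those of the other groups. The differences were 0.72 ± 0.12 for 5XFAD against WT (adjusted p = 0.000205) and -0.48 ± 0.11 for Trem2-/-5XFAD against 5XFAD (adjusted p = 0.00714). Pgd, of the oxidative branch, and Taldo1, transaldolase, were called nowhere, and no single-symbol probe set was named for G6pdx.

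**Figure D3:**
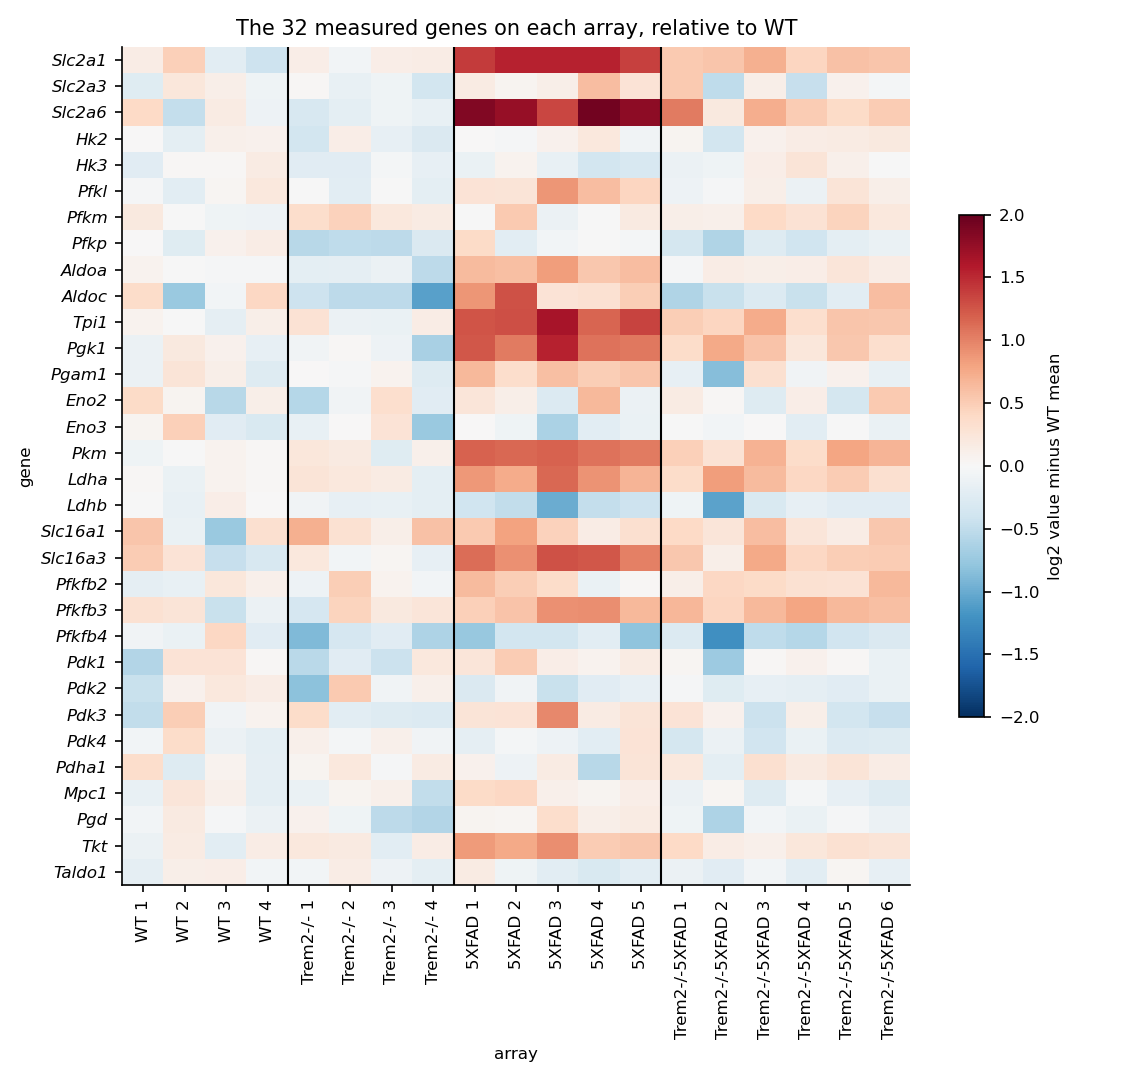
Each of the 32 measured genes (rows, ordered by role) on each of the 19 assigned arrays (columns), as the log2 value minus the mean of the 4 WT arrays, with colours limited to the range from -2 to 2. Black lines part the 4 groups, and red is above and blue below WT. The darkest red lies in the 5 5XFAD columns, and the same rows are paler in the 6 Trem2-/-5XFAD columns.

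Loss of Trem2 alone, in mice without the 5XFAD transgenes, moved none of the members past the threshold. In Trem2-/- against WT 0 of 30 were called by limma, with 4 at an unadjusted p under 0.05 (Aldoa, Aldoc, Pfkfb4 and Pfkm), against 0.613% of all tested genes called in either direction. The median difference was -0.10 over the members and -0.01 over all tested genes. The interval of Slc2a1 ran from -0.20 to 0.38 and that of Slc16a3 from -0.36 to 0.37. Both intervals lie below the rise of the same gene in 5XFAD.

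The change with 5XFAD was then read in mice that lack Trem2. In Trem2-/-5XFAD against Trem2-/- 5 of 30 members were higher and none lower, against 1.63% of all tested genes higher, with a median of 0.15 beside 0.02 over all tested genes. They were Slc2a6 (0.75 ± 0.16, adjusted p = 0.0177), Pgk1 (0.66 ± 0.14, adjusted p = 0.0128), Pkm (0.48 ± 0.11, adjusted p = 0.0234), Tpi1 (0.46 ± 0.11, adjusted p = 0.0358) and Aldoa (0.38 ± 0.09, adjusted p = 0.0324). All 5 were among the 12 higher in 5XFAD than in WT, that is 100% of the 5 and 41.7% of the 12. These comparisons have no group in common but share the estimate of the spread, so their calls are not independent. Over all genes 165 were higher in both, 79.7% of the 207 and 15.8% of the 1047. Slc2a1 (0.47 ± 0.13, adjusted p = 0.0573) and Ldha (0.40 ± 0.12, adjusted p = 0.0932) did not overlap between the groups but missed the threshold.

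These 5 calls lay near the threshold. Aldoa lost its call without any one of 8 arrays (Trem2-/- 1, 2 and 4 and Trem2-/-5XFAD 2 to 6; 0.29 to 0.41, adjusted p from 0.0509 to 0.110) and Tpi1 without any one of 6 (Trem2-/- 2 and 3 and Trem2-/-5XFAD 1, 3, 5 and 6; 0.40 to 0.47, adjusted p from 0.0607 to 0.139). Pkm lost it without Trem2-/- 3 or Trem2-/-5XFAD 3, 5 or 6 (0.38 to 0.46, adjusted p from 0.0511 to 0.114), Pgk1 without Trem2-/- 4 (0.51, adjusted p = 0.0510) and Slc2a6 without Trem2-/- 1 (0.70, adjusted p = 0.0692). Slc2a1 passed it without WT 2 or WT 4 (0.47, adjusted p of 0.0167 and 0.0281), which enter this contrast through the shared estimate of the spread. The number of members called was 2 with each array centred on its median and 1 with the covariate of other brain cell markers. Over all genes 138 and 95 were called higher in these settings, beside 207 in the main fit.

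The interaction asks whether the change with 5XFAD differed between mice with and without Trem2. It was computed as the change in Trem2-/- mice minus the change in mice with Trem2, so a value below 0 is a smaller rise without Trem2. It was called below 0 for 4 of 30 members, against 1.58% of all tested genes. Slc2a1 had an interaction of -1.01 ± 0.18 (limma adjusted p = 0.00327), with rises of 1.48 with Trem2 and 0.47 without it. Tpi1 had -0.88 ± 0.17 (adjusted p = 0.00413), from 1.34 and 0.46. Slc2a6 had -0.98 ± 0.24 (adjusted p = 0.0288), from 1.73 and 0.75, and Pkm -0.64 ± 0.16 (adjusted p = 0.0346), from 1.13 and 0.48.

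For the other 26 tested members the interaction was not called. Among those that rose in 5XFAD it was -0.65 ± 0.23 for Slc16a3 (adjusted p = 0.175; 0.0431 without WT 1), -0.56 ± 0.17 for Tkt (0.0843; 0.0424 without Trem2-/- 3), -0.53 ± 0.20 for Pgk1 (0.211), -0.47 ± 0.17 for Ldha (0.187), -0.26 ± 0.14 for Aldoa (0.397) and -0.22 ± 0.22 for Pfkfb3 (0.739), each an adjusted p. Slc2a1 and Tpi1 kept their calls whichever single array was left out. With the fit limited to Y-linked arrays, 1 each of WT and Trem2-/-, all 4 calls were lost (Slc2a1 -0.61, Tpi1 -1.01, Slc2a6 -1.46 and Pkm -0.68, adjusted p = 0.259, 0.131, 0.113 and 0.322). The call of Pkm was lost without any one of 11 arrays, WT 1, 2 and 4, Trem2-/- 1, 2 and 4, 5XFAD 1, 2 and 3 and Trem2-/-5XFAD 1 and 4 (-0.65 to -0.59, adjusted p from 0.0510 to 0.0804). That of Slc2a6 was lost without any one of 7, WT 2 and 4, Trem2-/- 2 and 3, 5XFAD 1 and 4 and Trem2-/-5XFAD 5 (-0.99 to -0.83, adjusted p from 0.0523 to 0.0634). Without the 4 arrays with salivary gland transcripts Pkm (-0.57, adjusted p = 0.185) and Slc2a6 (-0.90, adjusted p = 0.0794) lost their calls and Slc16a3 was called (-1.10, adjusted p = 0.00509).

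**Figure D4:**
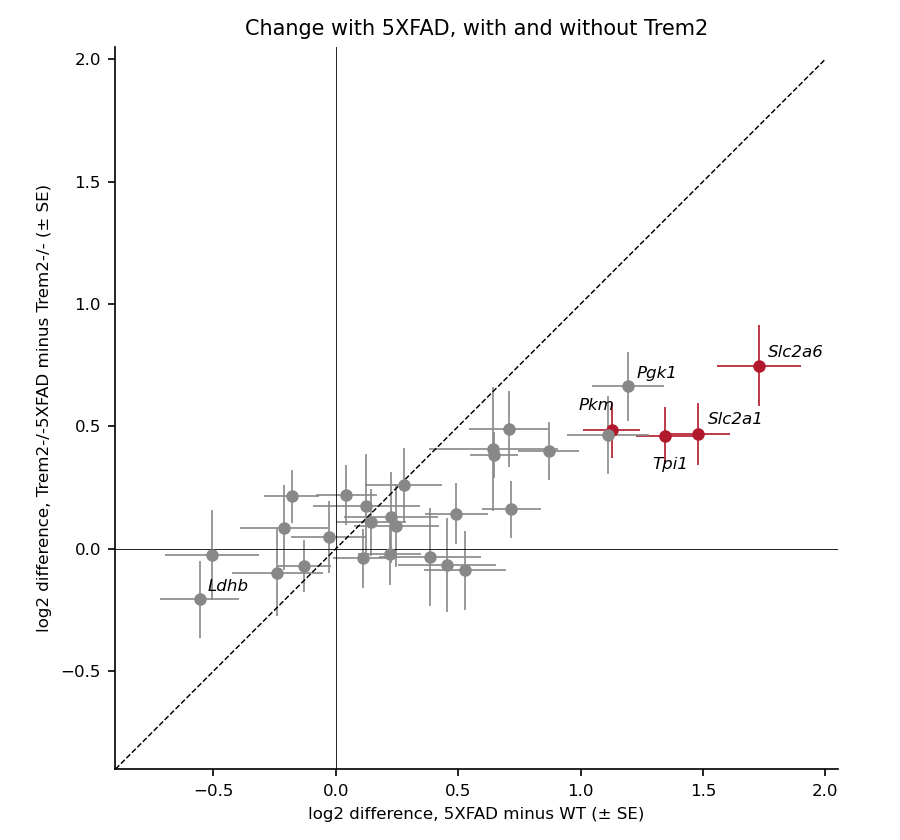
Change with 5XFAD in mice with Trem2 (horizontal, 5XFAD minus WT) against that in mice without Trem2 (vertical, Trem2-/-5XFAD minus Trem2-/-), as log2 differences with standard errors, for the 30 tested genes. The dashed line marks equal change, and red points have an interaction with a limma adjusted p under 0.05. Slc2a1, Slc2a6, Tpi1 and Pkm stand below the line, at 0.46 to 0.75 without Trem2 against 1.13 to 1.73 with it.

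Beyond the members, 62 other genes of glucose metabolism were read, among them further hexose transporters, glycogen enzymes and the shuttles that carry reducing equivalents into mitochondria, and 44 were tested. In 5XFAD against WT 3 were higher (6.82%) and 1 lower (2.27%), neither share above the 8.23% and 6.77% of all tested genes, with a median of 0.07 beside -0.02 over all tested genes. Got1, the cytosolic aspartate aminotransferase of the malate-aspartate shuttle, rose by 2.01 ± 0.16 (4.02 times, adjusted p = 1.63e-08), Gpd2, of the glycerol phosphate shuttle, by 1.16 ± 0.23, and Pygl, liver-type glycogen phosphorylase, by 0.60 ± 0.17 (adjusted p = 0.0158; 0.0518 without WT 2). Slc2a5 (GLUT5), the fructose transporter that is abundant in microglia, was 10.35, 10.30, 10.50 and 10.81 in WT and 9.12, 9.42, 9.31, 9.39 and 9.34 in 5XFAD, a difference of -1.17 ± 0.12 (adjusted p = 5.4e-07). It thus moved opposite to the glucose transporter Slc2a1 on every 5XFAD array.

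In Trem2-/-5XFAD against 5XFAD 4 of these 44 genes were lower (9.09%, beside 4.46% of all tested genes) and 2 higher (4.55%, beside 3.21%). Got1 differed by -0.93 ± 0.15 and Pgls, of the pentose phosphate pathway, by -0.42 ± 0.11. Bsg, the chaperone of monocarboxylate transporters (-0.29 ± 0.08), and the transporter Slc16a7 (-0.56 ± 0.16) were also lower and are named after their values were seen. Slc2a5 (0.54 ± 0.11) and Pgm2l1, a phosphoglucomutase relative (0.61 ± 0.17), were higher. Of these, Pgls, Bsg, Slc16a7 and Pgm2l1 each lost the call without any one of 4 to 8 arrays, among them 5XFAD 1 and 5XFAD 2 for all 4 genes (differences of -0.42 to -0.35, -0.30 to -0.26, -0.59 to -0.49 and 0.51 to 0.56, adjusted p up to 0.0912, 0.117, 0.109 and 0.0981). In Trem2-/- against WT 0 were called by limma (4 at an unadjusted p under 0.05), and in Trem2-/-5XFAD against Trem2-/- 2 were higher (4.55%, beside 1.63%), Got1 (0.87 ± 0.16) and Pygl (0.81 ± 0.16). The interaction was called for Got1 (-1.14 ± 0.23, adjusted p = 0.00644) and Slc2a5 (0.81 ± 0.17, adjusted p = 0.00905), 1 gene in each direction, beside 1.58% of all tested genes below 0 and 1.02% above it.

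Of 36 regulators of the pathway 30 were tested, and in 5XFAD against WT 6 were higher, beside 8.23% of all tested genes, and 3 lower, beside 6.77%. Hif1a, the oxygen-regulated subunit of hypoxia-inducible factor 1, was 8.20, 8.12, 8.07 and 8.39 in WT and 9.81, 9.62, 9.75, 9.80 and 9.51 in 5XFAD, a difference of 1.504 ± 0.10 (2.84 times, adjusted p = 9.87e-10). It was 8.08, 8.09, 7.86 and 8.24 in Trem2-/- and ran from 8.82 to 9.04 with a median of 8.87 in Trem2-/-5XFAD. Of the groups, WT and Trem2-/- overlapped and the others stood apart, with -0.79 ± 0.09 between Trem2-/-5XFAD and 5XFAD, 0.84 ± 0.10 between Trem2-/-5XFAD and Trem2-/-, and an interaction of -0.66 ± 0.14 (adjusted p = 0.0119).

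Egln3, a prolyl hydroxylase that marks Hif1a for degradation and is itself a hypoxia target, was 3.18, 3.64, 3.96 and 3.44 in WT and 7.97, 7.97, 7.47, 8.41 and 7.90 in 5XFAD, a difference of 4.39 ± 0.32. All WT values were below the 40th percentile, which was 4.16 to 4.34 by array, and the difference depends on the pseudocount and the background. In Trem2-/-5XFAD it ran from 4.24 to 6.42 with a median of 4.63, and the highest value was that of Trem2-/-5XFAD 2. Bhlhe40, a repressor that is induced in hypoxia and in activated myeloid cells, was likewise dim in WT (3.89, 3.72 and 3.71, with WT 1 at 5.45) and at 8.13 to 9.04 in 5XFAD, a difference of 4.28 ± 0.27. It ran from 4.44 to 4.98 in Trem2-/-5XFAD, and the difference from 5XFAD was -3.75 ± 0.24. The interactions were -3.19 ± 0.44 for Egln3 and -3.57 ± 0.37 for Bhlhe40 (adjusted p = 0.000189 and 7.33e-06).

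Txnip, an arrestin that removes Slc2a1 from the cell surface, moved the other way. It was 11.01, 11.09, 11.24 and 11.35 in WT and 9.17, 9.80, 9.69, 10.07 and 10.10 in 5XFAD, a difference of -1.41 ± 0.15 (adjusted p = 1.21e-06), and in Trem2-/-5XFAD it was 0.56 ± 0.14 above 5XFAD, with an interaction of 0.85 ± 0.21 (adjusted p = 0.0374). The interaction was lost without any one of 11 arrays, WT 3 and 4, Trem2-/- 1, 3 and 4, 5XFAD 3 and Trem2-/-5XFAD 1, 3, 4, 5 and 6 (0.79 to 0.85, adjusted p from 0.0538 to 0.0793). Its relative Arrdc4 rose instead, by 1.16 ± 0.17 in 5XFAD against WT, and differed by -1.04 ± 0.15 between Trem2-/-5XFAD and 5XFAD. Both are known targets of the same glucose-sensing factors. The remaining called regulators in 5XFAD against WT, named after their values were seen, were Egln1 (0.38 ± 0.12) and the mTOR activator Rheb (0.40 ± 0.14), which were higher, and Foxo3 (-0.44 ± 0.12) and the AMPK subunit Prkab1 (-0.91 ± 0.15), which were lower. Egln1 lost its call without WT 1, WT 2, 5XFAD 3, 5XFAD 4 or 5XFAD 5 (0.32 to 0.37, adjusted p from 0.0570 to 0.100), and Rheb without any one of 15 of the 19 arrays (0.29 to 0.42, adjusted p from 0.0508 to 0.192).

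In Trem2-/-5XFAD against 5XFAD the regulators gave 4 of 30 lower, beside 4.46% of all tested genes (Hif1a, Egln3, Bhlhe40 and Arrdc4), and 2 higher, beside 3.21% (Txnip and Prkab1, the latter lost without any one of 15 arrays at 0.39 to 0.49, adjusted p from 0.0531 to 0.136). Against Trem2-/-, 2 of 30 were higher in Trem2-/-5XFAD, beside 1.63%, Hif1a and Egln3 (1.20 ± 0.30, adjusted p = 0.0410; lost without any one of 9 arrays, 5XFAD 5, all 4 of Trem2-/- and Trem2-/-5XFAD 1, 3, 4 and 6, at 1.07 to 1.34, adjusted p from 0.0507 to 0.124), and in Trem2-/- against WT 0 were called by limma, with 4 at an unadjusted p under 0.05. Myc (-0.02 ± 0.18), Mtor (0.10 ± 0.12), Arnt (-0.07 ± 0.12) and Epas1 (0.17 ± 0.14), named as the known partners and upstream regulators of the pathway, were not called in 5XFAD against WT. RNA levels do not show the protein or the activity of these regulators.

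**Figure D5:**
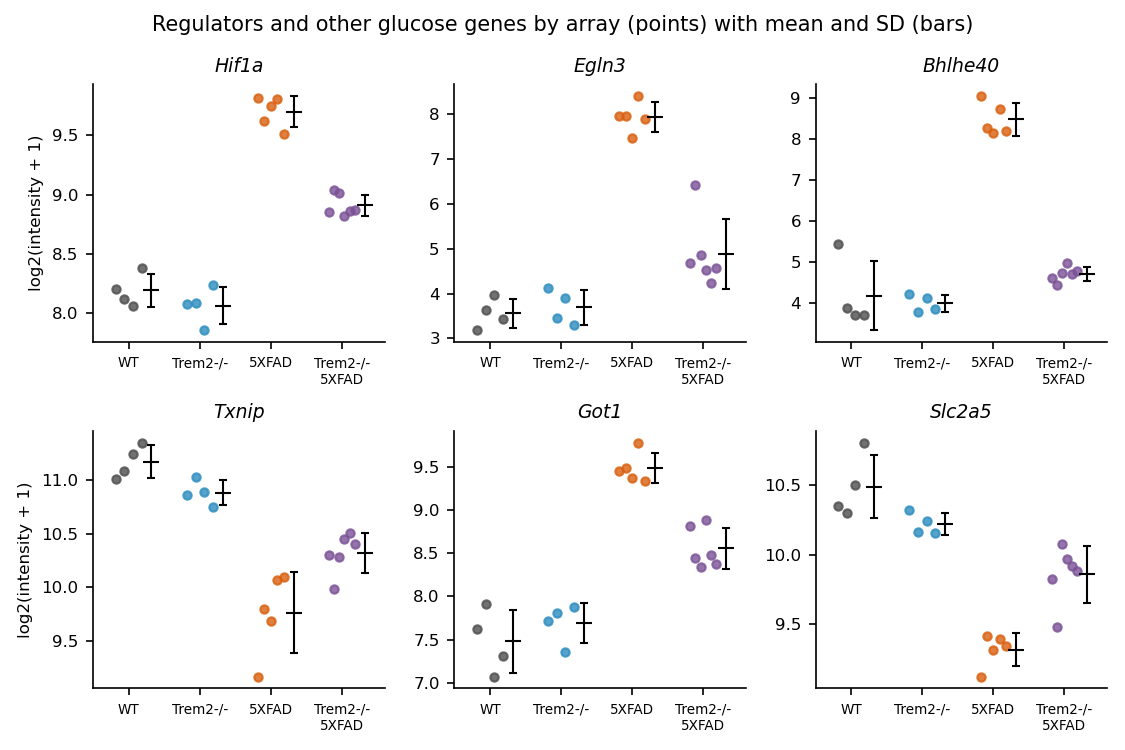
Values of 4 regulators and 2 further glucose genes on each of the 19 assigned arrays, as log2(intensity + 1), with a vertical axis of its own in each panel. Points are arrays and bars the group mean with SD (4 WT, 4 Trem2-/-, 5 5XFAD and 6 Trem2-/-5XFAD arrays). Hif1a, Egln3, Bhlhe40 and Got1 are highest in all 5XFAD arrays, while Slc2a5 is lowest there and Txnip is lower there than in both groups without the transgenes.

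Beside these values, other cell markers differed between groups. The monocyte list averaged 4.33 to 4.60 in WT, 4.55 to 4.96 in Trem2-/-, 5.10 to 5.61 in 5XFAD and 4.80 to 5.30 in Trem2-/-5XFAD, with Chil3 below the 40th percentile on every array. Of its 5 tested markers 3 were called higher in 5XFAD than in WT and 3 lower in Trem2-/-5XFAD than in 5XFAD. The border macrophage list averaged 6.11 to 6.96 in WT, 6.47 to 7.58 in Trem2-/-, 5.26 to 5.91 in 5XFAD and 6.34 to 7.01 in Trem2-/-5XFAD. Of its 10 markers 4 were called lower in 5XFAD than in WT and 9 higher in Trem2-/-5XFAD than in 5XFAD. The part of these markers in the differences of the members was not tested. Among the arrays with Xist signal alone 6 members were higher in 5XFAD than in WT, where 5XFAD had 1 such array, and among those with Y-linked signal alone 8 were higher and 1 lower, where WT had 1. With the sex signal as a factor 12 were higher and none lower, but Pgam1 was no longer called (0.54, adjusted p = 0.0760) and Aldoc was (0.99, adjusted p = 0.0130). Over all genes 991 were higher and 676 lower with that factor, beside 1047 and 862 in the main fit. Without the 4 arrays with salivary gland transcripts 11 were higher and none lower in 5XFAD against WT and 9 lower in Trem2-/-5XFAD against 5XFAD. Over all genes 730 were higher and 713 lower in the first comparison there. In the second 325 were lower, beside 568 in the main fit. Without the 2 arrays with the highest neutrophil markers the counts were 11 higher and 1 lower, and 9 lower, beside 1008, 824 and 469 over all genes. Ldhb lost its call with the sex signal as a factor (-0.47, adjusted p = 0.102), within each sex signal (-0.45 in each, adjusted p = 0.464 and 0.280) and without the salivary arrays (-0.70, adjusted p = 0.0651). All Trem2-/-5XFAD arrays had Y-linked signal, so sex signal and genotype cannot be fully told apart in these groups.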

How the data were processed

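The series measured RNA of sorted microglia on 1-colour arrays, 1 per sample, with labelled cRNA made from 2 ng of total RNA per the labels' protocols. The deposited table gives 24679 probe sets on 20 arrays, as linear intensity. Its array medians lay between 25.7 and 28.6, and how the authors summarised and normalized the probes is a step not given in the sources used here. Probe sets were named through the platform annotation, which gave 1 gene for 21354 probe sets, several for 1275 and none for 2050, and 21277 matched the reference gene table. The highest-mean probe set stood for a gene, which left 19751 genes.

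Values were used as log2(intensity + 1), a pseudocount of 1, which understates folds of dim genes. Genes were tested where 4 or more assigned arrays had a value above their own 40th percentile. Of the members, 29 did so on all 19. A 4-group model was fitted with limma 3.58.1 in R 4.3.3 (15 residual and 5.29 prior degrees of freedom), with Benjamini-Hochberg adjustment over 12728 genes and a threshold of 0.05. All adjusted p-values in the text come from limma, and the script was tested on simulated data. Intervals are 95%. The members and lists were chosen with earlier results of these data known. All measured members are named. Values on every WT, Trem2-/- and 5XFAD array are given for the 8 members with the smallest p in 5XFAD against WT. The same holds for those called in the interaction or in Trem2-/- against WT, and those called against the main direction. For Trem2-/-5XFAD their range and median are given. From each of the lists of other glucose genes and regulators, the 4 genes with the smallest p in each of the comparisons of 5XFAD with WT and of Trem2-/-5XFAD with 5XFAD are named. An array titled as WT but with a Trem2-/- genotype was left out, and alternatives placed it in WT or in Trem2-/-. Its Trem2 level, given at the end, lay far above those of the Trem2-/- arrays. The number of arrays limits precision. Alternatives were the pseudocount, filter, scaling, prior, probe-set rule, replicate block, model, covariates and left-out arrays.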

Additional observations from a re-analysis of the deposited data

Results flagged for a closer look

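Among the 128 pairs of a measured member and a group of 4 to 6 arrays, 15 held an array whose gap to its nearest neighbour was large against the range of the group, where chance gives about 1 in 20. Trem2-/-5XFAD 2 was the lowest of its group in 6 of them, Hk2 at 7.58, Ldhb at 9.57, Pfkfb4 at 5.40, Pdk1 at 6.49, Pdha1 at 6.32 and Pgd at 8.43. On the second Ldhb probe set the same array was at 10.67, the highest of its group. In Trem2-/- arrays the far values were Slc2a1 at 9.09 in array 2 (low), Tkt at 7.49 in array 3 (low), Aldoc at 5.46 (low) and Pfkp at 3.80 (high) in array 4, and Pdk3 at 6.23 in array 1 (high). In 5XFAD 3 Ldhb was low at 9.66 and Pdk3 high at 6.82. Aldoa was high in WT 1 at 10.59, and Aldoc was high in Trem2-/-5XFAD 6 at 7.17.

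The change with 5XFAD differed between mice with and without Trem2, by the interaction term of the limma model, for 4 members and 6 other genes of the lists. The interaction was -1.01 for Slc2a1, -0.98 for Slc2a6, -0.88 for Tpi1 and -0.64 for Pkm. It was -3.57 for Bhlhe40, -3.19 for Egln3, -1.14 for Got1 and -0.66 for Hif1a, where the rise with 5XFAD was smaller without Trem2. Egln3 lay below the 40th percentile on all WT and Trem2-/- arrays and Bhlhe40 on most of them, so the sizes of these differences depend on the pseudocount and the background. The interaction was 0.85 for Txnip and 0.81 for Slc2a5, where the fall was smaller without Trem2.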

How the results depend on the processing

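Over all settings, single arrays left out included, 5411 of the members' log2 differences kept their direction, where called, and their side of the threshold, 118 lost a call, 36 gained one and none reversed. Most of the 5411 were not called in the main fit and stayed so. Calls were lost in 16 settings for Pgam1 in 5XFAD against WT and in 16 for the interaction of Pkm. In Trem2-/-5XFAD against Trem2-/- they were lost in 14 settings for Aldoa and in 13 for Tpi1. The rises of Slc2a1, Slc2a6, Tpi1, Pgk1, Pkm and Ldha in 5XFAD against WT were called in every setting run. Leaving out 1 array at a time gave 11 to 14 called members in 5XFAD against WT, 10 to 13 in Trem2-/-5XFAD against 5XFAD, 0 to 0 in Trem2-/- against WT, 2 to 6 in Trem2-/-5XFAD against Trem2-/- and 2 to 4 in the interaction. In 5XFAD against WT, with 13 members called, 6 were called among the arrays with Xist signal alone, a setting with 1 5XFAD array that was chosen after seeing the data. In Trem2-/-5XFAD against 5XFAD, with 11, 6 were called with the covariate of other brain cell markers. Over all genes 267 were called lower there, beside 568 in the main fit. In Trem2-/-5XFAD against Trem2-/-, with 5, 2 were called with arrays centred on their median, 3 with the groups compared alone, 1 with the brain cell covariate, 3 with the sex factor, and, in settings chosen after seeing the data, 1 among Y-linked arrays alone and 3 without the 2 arrays with the highest neutrophil markers. In the interaction 1 member was called among Y-linked arrays alone, in the other direction (Eno3, 1.42, adjusted p = 0.0437), where WT and Trem2-/- had 1 array each. In Trem2-/-5XFAD against Trem2-/-, 207 of all genes were called higher in the main fit. The count was 138 with arrays centred, 250 with the groups compared alone and 95 with the brain cell covariate. It was 137 with the sex factor and 121 without the 2 arrays with the highest neutrophil markers. Calls over all genes also fell in the fits within a single sex signal. The cause of these changes was not tested. Same-numbered arrays deviated together little (25 pairs, r from -0.104 to 0.166, mean 0.0234, beside a mean of -0.00539 over other pairs). Whether the numbers pair the arrays was not tested. With the number as a replicate block 2 members were called in Trem2-/-5XFAD against Trem2-/-, beside 153 of all genes called higher. The interaction has no model of fewer groups, and Xist arrays alone could give only the comparisons without Trem2-/-5XFAD. The split of all called genes in Trem2-/-5XFAD against 5XFAD was 409 higher and 568 lower, and 260 and 641 with arrays centred. Signal near background limits Eno2, Pfkp and Pdk4.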

Other observations

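The array with conflicting labels, titled as WT with a Trem2-/- genotype, had Trem2 at 11.08. That is just under the 11.14 to 11.80 of the arrays with the gene and far above the 6.75 to 7.60 of those without it. For the members it measured Slc2a1 at 9.16, Slc2a6 at 6.03, Aldoa at 10.42, Tpi1 at 8.04, Pgk1 at 8.55, Pkm at 9.10, Ldha at 8.47, Ldhb at 10.39 and Slc16a3 at 7.37. Among the regulators it had Hif1a at 8.29, Egln3 at 3.70, Bhlhe40 at 3.72 and Txnip at 11.11, and for the fructose transporter Slc2a5 it had 10.19.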
